A study of Mus musculus with 2031 samples.

Results

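The genes described here encode the connexins of astrocytes and the membrane complex of their perivascular endfeet. They are the 7 rows of the count table whose symbols are Gja1, Gjb6, Aqp4, Mlc1, Hepacam, Dag1 and Dtna, out of 49671 genes counted. They were chosen by name and not by a measured value, though with earlier results of these data known, and all 7 were found. Adult C57BL/6J mice (postnatal day 56) gave cell suspensions of cortex and hippocampus, and single cells that were positive for ATP1B2 (the ACSA-2 antigen of astrocytes), negative for the oligodendrocyte antigen O1 and free of the dead-cell dye 7-AAD were sorted into plates and sequenced with an optimised Smart-seq2 protocol. The study asked how astrocytes of these regions divide into subtypes. The unit of replication was the suspension: cortex 1 and cortex 2 were each made from 1 mouse of the same litter, whereas hippocampus 1 and hippocampus 2 were each pooled from 4 littermates of another litter each, so region, litter and number of pooled mice cannot be told apart.

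Astrocytes are joined by gap junctions made mainly of connexin 43 (Gja1) and connexin 30 (Gjb6), through which ions and small metabolites pass from cell to cell. Their endfeet, which wrap the brain's vessels, carry the water channel aquaporin 4 (Aqp4), held at the membrane by the dystrophin-associated complex, in which dystroglycan (Dag1) binds laminin in the basal lamina and alpha-dystrobrevin (Dtna) is the cytoplasmic adaptor. MLC1 (Mlc1) is a membrane protein needed for astrocyte volume regulation and GlialCAM (Hepacam) is the adhesion molecule that brings it to cell junctions, and defects of either cause a leukodystrophy with swollen white matter.

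The files held 2030 cells with between 600758 and 3238215 gene counts each (median 1458411). Cell types and the astrocyte subtypes AST1 to AST5 were those assigned by the study's authors, and covered 1781 astrocytes, of which 657 were AST1, 555 AST2, 452 AST3, 91 AST4 and 26 AST5, beside 30 endothelial, 17 neuronal, 11 microglial and 9 oligodendrocytic cells and 27, 12, 48 and 47 mural cells in the 4 suspensions. AST2 made up 52.1% and 56.7% of the astrocytes in the cortical suspensions, but 2.54% (10 cells) and 5.14% (22 cells) in the hippocampal ones. AST4 was nearly confined to the hippocampus, with 41 and 48 cells against 2 and 0 in cortex. Checked against the labels, all 10 markers of the astrocyte list had a count in over 25% of AST1, AST3 and AST5 cells, 9 in AST2 and 8 in AST4, in which the 2 below that share were Aldh1l1 (15.4% of cells) and Slc4a4 (20.9%). Because the authors found the subtypes by clustering these same counts, differences between subtypes or types are described without a test. Levels are CPM values, a gene's counts in the summed cells of a class in a suspension divided by all gene counts of that sum and scaled to 1000000, and sums of fewer than 5 cells were left out of means.

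All 7 genes were well expressed in astrocytes, and by CPM Gja1 stood at place 14 among all genes and Hepacam at place 80. Gja1 (ENSMUSG00000050953; GRCm38 chromosome 10, 56377330 to 56402513, plus strand) was at 6681 and 6818 CPM in the cortical suspensions and 7296 and 7101 CPM in the hippocampal ones. These are narrow ranges, and the regions did not overlap. Gjb6 (ENSMUSG00000040055; chromosome 14, 57123303 to 57133611, minus strand) was at 1761 and 1961 CPM in the cortical suspensions and 1557 and 1625 CPM in the hippocampal ones. Gjb6 was thus higher in both cortical suspensions, the reverse of Gja1. Aqp4 (ENSMUSG00000024411; chromosome 18, 15389496 to 15410982, minus strand) was at 1380.0 and 1438 CPM in the cortical suspensions and 1631 and 1504 CPM in the hippocampal ones. Mlc1 (ENSMUSG00000035805; chromosome 15, 88955884 to 88979007, minus strand) was at 1839 and 1779 CPM in the cortical suspensions and 2562 and 2381 CPM in the hippocampal ones, the widest gap between regions among the 7. Hepacam (ENSMUSG00000046240; chromosome 9, 37367351 to 37386575, plus strand) was at 1249.8 and 1282 CPM in the cortical suspensions and 1133 and 1018 CPM in the hippocampal ones. Dag1 (ENSMUSG00000039952; chromosome 9, 108204634 to 108263958, minus strand) was at 309.1 and 318.6 CPM in the cortical suspensions and 394 and 430.4 CPM in the hippocampal ones. As for Mlc1, both hippocampal values were the higher ones. Dtna (ENSMUSG00000024302; chromosome 18, 23415135 to 23659715, plus strand) was at 343.6 and 374.7 CPM in the cortical suspensions and 429 and 432 CPM in the hippocampal ones. All 7 are protein-coding, and no exon of 6 of them was shared with another annotated gene. Dtna shared 0.532% of its exon bases with a gene on the opposite strand.

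Per kilobase of annotated exons, which is the scale on which levels of different genes can be set side by side, the order was Mlc1 (764 ± 139.5 CPM per kb, SD over 4 suspensions), Gja1 (679.9 ± 27), Gjb6 (645 ± 66.5), Hepacam (349.7 ± 35.9), Aqp4 (238.7 ± 17.3), Dag1 (57.1 ± 9.25) and Dtna (23.3 ± 2.55). The first 3 lay within a spread of each other. The order depended on the transcript assumed: with the length of each gene's principal transcript, Gja1 led at 2192 ± 87 CPM per kb, and Dtna, whose many isoforms add up to 16930 exonic bases against 1596 in the principal transcript, moved to 247.4 ± 27, above Dag1 at 64.1 ± 10.4.

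Within single astrocytes the 7 genes differed in how evenly they were detected. To compare cells of unequal depth, each cell was thinned to 50000 gene counts. Gja1 then had at least 1 count in 99.3% of 1781 astrocytes (99.4% before thinning), Mlc1 in 93.8% (94.9%), Hepacam in 91.5% (93.9%), Gjb6 in 91.1% (92.4%) and Aqp4 in 86.5% (88.3%). Dtna and Dag1 were patchier, in 74.4% (82.1%) and 63.1% (68.3%). A typical astrocyte held 6 of the 7 genes (median), 36.1% of astrocytes held all 7 and 0 held none. Counts of 1 cell come from PCR-amplified reads without molecular identifiers, so shares and intervals cover counting error only.

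**Figure D1:**
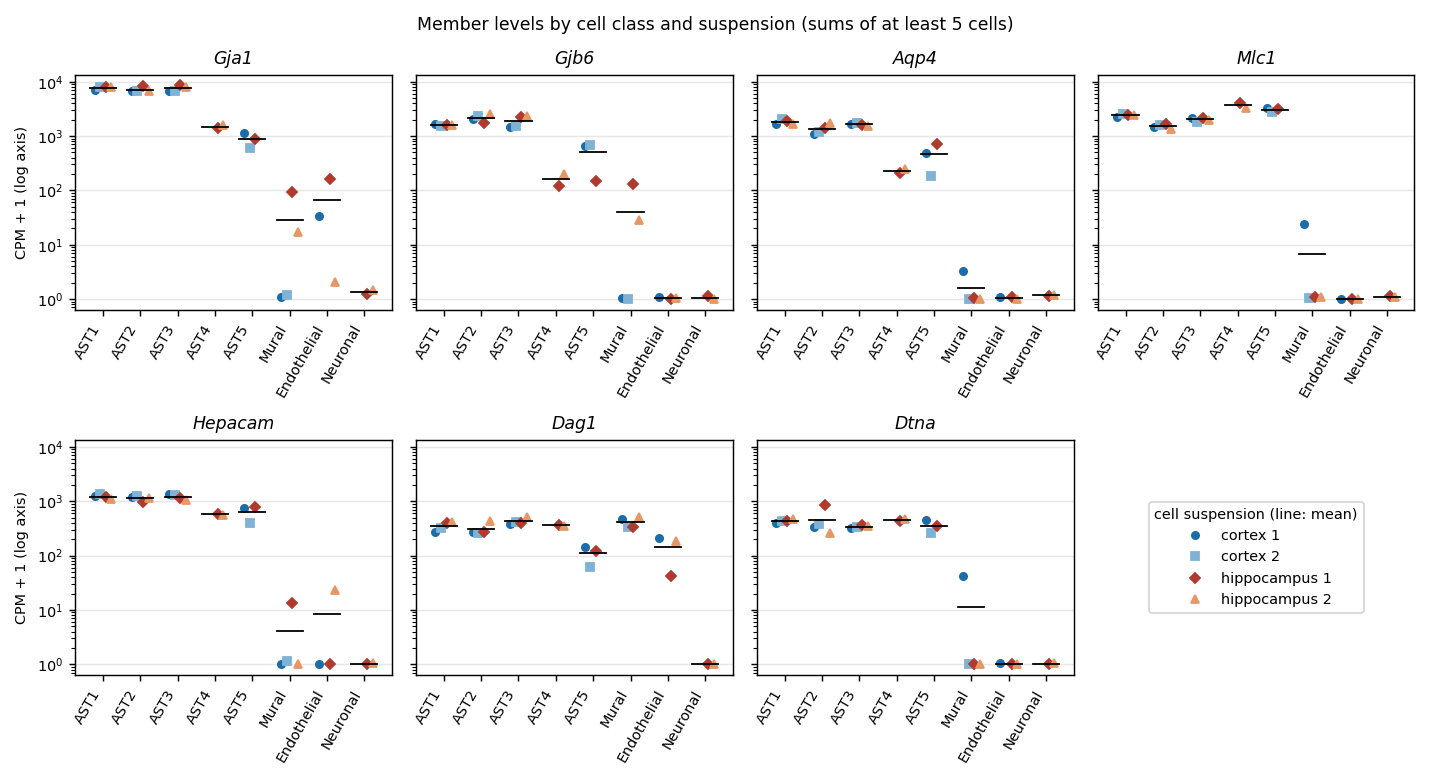
Level of each gene (vertical log axis, CPM + 1) in the summed cells of each class (horizontal axis), with 1 point per suspension of at least 5 cells, coloured and shaped by suspension, and a line at the mean. Gja1, Gjb6 and Aqp4 lie lower in AST4 and AST5 than in the other subtypes while Mlc1 lies higher, and Dag1 is the only gene of the 7 whose mural level lies among the astrocyte levels.

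In AST4 the genes of the complex were split. AST4 cells held less of both connexins and of Aqp4 than AST1, AST2 and AST3 cells, while Mlc1 was at its highest there. The AST4 levels of Dag1 and Dtna were similar in the 2 suspensions, but their ratios to the other subtypes had no common direction. In AST4 of hippocampus 1 and hippocampus 2, Gja1 was at 1387 and 1584 CPM, against 6723 to 8614 CPM in the 12 sums of AST1, AST2 and AST3. This was 4.7-fold lower than the mean of the other subtypes of the same suspension (log2 ratio -2.23 ± 0.03, SD, n = 2). Gjb6 was at 118.7 and 199.6 CPM, 11.4-fold lower (-3.51 ± 0.12). The ratio of connexin 30 was the lower of the connexins, and no sum of AST1, AST2 or AST3 came below 1476 CPM. Aqp4 was at 208.5 and 244.98 CPM, 6.77-fold lower (-2.76 ± 0.02). As means over cells of log2(CPM + 1), in which cells without a count weigh more, the ratios were -6.93 for Gjb6 and -5.90 for Aqp4. Hepacam was at 579 and 566 CPM, 1.86-fold lower (-0.90 ± 0.08). Mlc1, whose protein GlialCAM escorts to cell junctions, was higher instead, at 4055 and 3336 CPM, 1.73-fold higher (0.79 ± 0.0062). For Dag1 (-0.06 ± 0.46) and Dtna (0.11 ± 0.44) the 2 suspensions differed in sign. Their AST4 levels were 364.04 and 352.95 CPM for Dag1 and 437.2 and 480.6 CPM for Dtna. The reference differed: it held AST5 in hippocampus 1 alone (6 cells, Dag1 at 122.4 CPM). AST2 Dtna was at 858 CPM in hippocampus 1 (10 cells) and 262.2 CPM in hippocampus 2. With at least 10 cells per sum, which drops AST5 there, the mean ratios were -0.19 for Dag1 and 0.04 for Dtna. The part of the reference in the signs was not tested.

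By the rule of a ratio of at least 0.36 on the log2 scale in the same direction in every suspension, 5 of the 7 genes were past the fold in AST4, and so were 46.7% of the 18233 genes that passed the filter on low counts, so the count itself did not set these genes apart. Over the 98 genes at 1000 CPM or more in all astrocytes, a choice made after the values were seen and one that favours genes high in AST1 to AST3, the median log2 ratio in AST4 was -0.72, close to the -0.90 of Hepacam. Several astrocyte markers were also lower, with Glul at 210.6 against 1195, Fgfr3 at 329.1 against 1093 and Atp1b2 at 1892 against 4929.8 CPM in AST4 and in all astrocytes, while Slc1a3, at 12714 against 9376 CPM, and Gfap, at 2086 against 581 CPM, were higher. The values of all astrocytes pool both regions, whereas AST4 was nearly confined to the hippocampus, so region was not held equal here. The part of these marker differences in the lower levels was not tested.

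The lower levels in AST4 went with fewer cells holding the transcript. After thinning, Gjb6 was detected in 27.5% of 91 AST4 cells and Aqp4 in 34.1%, against 93% and 91% of AST1 cells. Gja1 was still detected in 94.5% of AST4 cells, at a median of 1367 CPM per cell against 7492 CPM in AST1. Hence 61 of 91 AST4 cells (67%) had a count of Gja1 without one of Gjb6. This held for 7.0% of AST1, 3.06% of AST2 and 3.76% of AST3 cells and for 7 of 26 AST5 cells (26.9%). No AST4 cell had Gjb6 without Gja1. Likewise 58 of the 91 (63.7%) had Mlc1 without Aqp4, against 8.52% of AST1, 13.9% of AST2, 4.2% of AST3 and 38.5% of AST5 cells. Neither AST4 nor AST5 had a cell with Aqp4 without Mlc1. Such counts depend on the share of cells with each gene alone. Whether they differ from what these shares would give was not tested. The depth was similar, with a median of 1405690 gene counts per AST4 cell and 1431483 per AST1 cell. Neural stem cell markers were higher in AST4: their 7 genes summed to 877 to 1099 CPM in AST4, where 4 had a count in over 25% of cells and 1 had no count, and to 41.1 to 174.1 CPM in the other subtypes. Their part in the result was not tested.

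**Figure D2:**
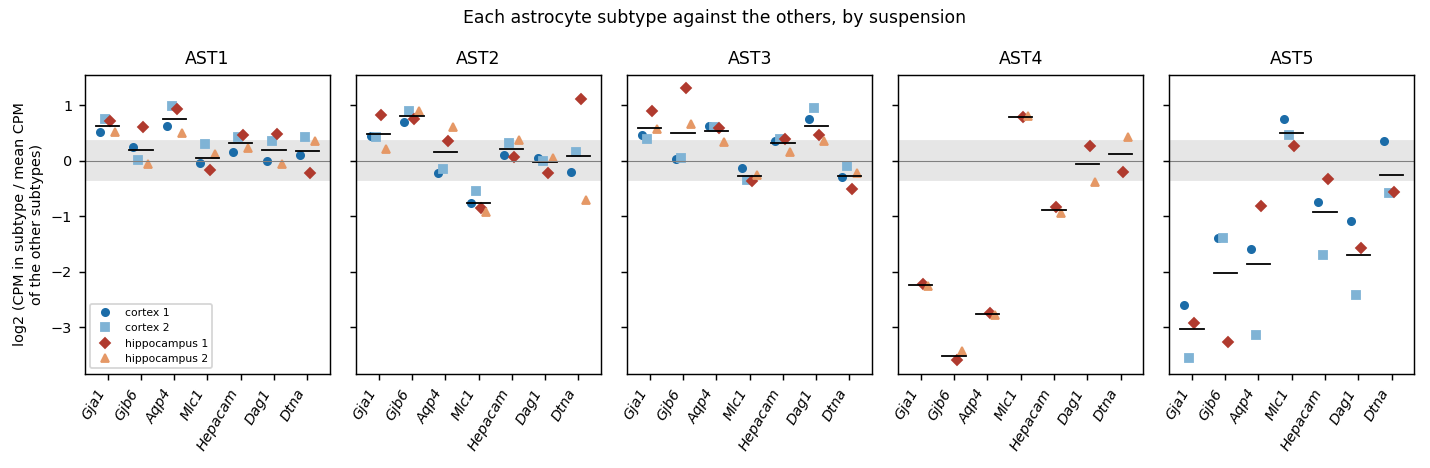
Log2 ratio (vertical axis) of the CPM of each gene in a subtype to its mean CPM in the other subtypes of the same suspension, 1 panel per subtype, 1 point per suspension with at least 5 cells and a line at the mean; the grey band marks ratios under 0.36. In AST4 the ratios run from -3.51 for Gjb6 to 0.79 for Mlc1, and no mean ratio in AST1, AST2 or AST3 is below -0.77.

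AST5, the rarest subtype, also had low connexins, and Dag1 was low as well. In AST5 of cortex 1, cortex 2 and hippocampus 1, Gja1 was at 1133, 606 and 867 CPM, 8.15-fold lower than in the other subtypes (log2 ratio -3.03 ± 0.49, SD, n = 3). These 3 values lay below both AST4 values, which are hippocampal, whereas the AST5 values of cortex 1 and cortex 2 are not. The AST5 sum of hippocampus 2, left out with 2 cells, was at 1579 CPM, between the AST4 values. Gjb6 was at 656 and 688 CPM in cortex and 148.9 CPM in hippocampus 1, a spread too wide to separate it from AST4. Aqp4 was at 494, 185.2 and 718 CPM. Dag1 was at 144.6, 61.6 and 122.4 CPM, 3.23-fold lower, and was detected in 19.2% of the 26 cells against 67% of AST4 cells. Mlc1 was at 3279.7, 2711 and 3116 CPM, 1.41-fold higher (log2 ratio 0.50), but not past the fold in every suspension, and the ratio turned to -0.18 as a mean over cells of log2(CPM + 1). In all, 4 of the 7 genes were past the fold in AST5, against 44.7% of all genes tested. AST5 rests on 24 cells in these 3 sums, and 1 of them carried up to 1036 CPM of the 6 oligodendrocyte markers, the part of which was not tested.

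Differences among AST1, AST2 and AST3 were smaller. In AST1 the members past the fold were Gja1 (1.55-fold higher, log2 ratio 0.63 ± 0.13, n = 4) and Aqp4 (1.69-fold, 0.76 ± 0.23), 2 of 7 against 14% of all genes. In AST2 they were Gjb6 (1.75-fold higher, 0.81 ± 0.10) and Mlc1 (1.71-fold lower, -0.77 ± 0.17), 2 of 7 against 9.28%. In AST3 Gja1 alone was past the fold (1.5-fold higher, 0.58 ± 0.22), 1 of 7 against 15.1%. These counts lean on AST4 and AST5, which weigh as much as the large subtypes in the mean: with the other subtypes weighted by their cells, 0 members were past the fold in AST1, 0 in AST2 and 0 in AST3.

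The order of levels showed the same division. For Gja1, the ranges of AST1, AST3 and AST2 over the 4 suspensions overlapped (7679.9 ± 467, 7548 ± 932 and 7167 ± 785 CPM, SD, n = 4), and AST4 and AST5 followed without overlap among sums of at least 5 cells. For Gjb6 the order was AST2 (2168 ± 351.7 CPM), AST3 (1892 ± 435 CPM) and AST1 (1604 ± 51.8 CPM), with overlap between neighbours. For Aqp4 it was AST1 (1821 ± 162.7 CPM), AST3 (1642 ± 79.1 CPM) and AST2 (1367 ± 298.1 CPM), again with overlap. AST2 spread the most, from 1111 and 1178 CPM in cortex to 1408 and 1772 CPM in hippocampus. Mlc1 was the exception: over sums of at least 5 cells, the ranges of AST4, AST5, AST1, AST3 and AST2 followed each other in this order without overlap, from 3695 ± 508 CPM (SD, n = 2) in AST4 to between 1363 and 1637 CPM in AST2. The left-out sums of 2 cells were at 2272 CPM (AST4, cortex 1), within the AST1 range, and at 1630 CPM (AST5, hippocampus 2), within the AST2 range. How many other genes show such an order was not counted. For Hepacam, AST3, AST1 and AST2 overlapped at 1220.5, 1217 and 1153 CPM, above AST5 and AST4. For Dtna all 5 subtypes overlapped with their neighbours, between 342.7 CPM in AST3 and 460.5 CPM in AST2, where 1 sum of 10 cells reached 858 CPM.

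Outside astrocytes the genes of the complex were found in different cell types. Mural cells, the pericytes and smooth muscle cells on which endfeet rest, shared Dag1 with astrocytes and held hardly any of the other 6. Mural Dag1 was at 477 and 335.5 CPM in the cortical suspensions and 335.7 and 524 CPM in the hippocampal ones. These values straddle the astrocyte level, with a log2 ratio to astrocytes of 0.19 ± 0.36 (SD, n = 4), and Dag1 was detected after thinning in 61.2% of mural cells and 63.1% of astrocytes. The other 6 genes were detected in 0.746% to 2.24% of mural cells (in 1 to 21 cells before thinning), and where a suspension had over 100 counts of one of them, a single cell supplied at least 99.4% of these. For example, 1 of 48 mural cells of hippocampus 1 carried 8401 of 8403 Gjb6 counts. By the fold rule 6 of 7 were lower in mural cells than in astrocytes in every suspension, against 37.3% of 15974 genes past the fold in either direction. The 10 astrocyte markers summed to 2960.4 to 3485 CPM in mural cells, mostly Atp1b2 (2897 CPM), the gene of the sort antigen, and 3 of the 10 had a count in over 25% of cells. Gfap and Aldh1l1 were each in 0.746%.

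Endothelial cells (30 cells, 3 sums of at least 5) also had Dag1, at 211.3 CPM in cortex 1 and 41.6 and 183.6 CPM in the hippocampal suspensions, in 50% of cells. These sums also carried the 8 mural markers, at 10008 to 17266 CPM together, against 48969 to 58906 CPM in mural cells. Of the 8, 5 had a count in over 25% of endothelial cells. The part of this mural signal in the endothelial Dag1 level was not tested. Gja1 had a count in 9 of the 30 cells, and its level of 159.9 CPM in hippocampus 1 came to 99.9% from 1 cell. All 7 members were lower than in astrocytes in every sum, against 47.1% of genes past the fold. Mlc1 had no count in any endothelial cell, which, by the limit of 3 counts of the total, allows up to 10% of cells with a count. In 17 neuronal cells, all hippocampal, Dag1 had no count (up to 17.6% of cells with a count allowed by the same limit) and after thinning only Gja1 was seen, in 11.8% (35.3% before). Microglia, of which there were 11, held none of Gjb6, and in cortex 2 a single cell each time supplied all of the 1973 Mlc1 and 798 Hepacam counts.

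Oligodendrocytic cells mostly had Hepacam without Mlc1. Hepacam was at 1068 CPM in cortex 1 (2 cells), 807 CPM in hippocampus 1 (4 cells) and 1088 CPM in hippocampus 2 (3 cells), close to the astrocyte level of 1170.5 ± 120.2 CPM (SD, n = 4). It was detected in 9 of 9 cells, before and after thinning (70.1 to 100%, 95% Wilson interval). Mlc1 was present in 1 of the 9, a cell of cortex 1, where the counts of Gja1 and Gjb6 also lay in 1 cell each. The astrocyte markers summed to 3566 CPM over the 9 cells, with 5 of 10 in over 25% of cells and Gfap and Slc4a4 at 0. Their part in the Hepacam level was not tested. The share of cells with Hepacam was 0.746% in mural and 6.67% in endothelial cells at the same thinned depth. Dtna was seen in 44.4% and Dag1 in 33.3% of the 9 cells.

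**Figure D3:**
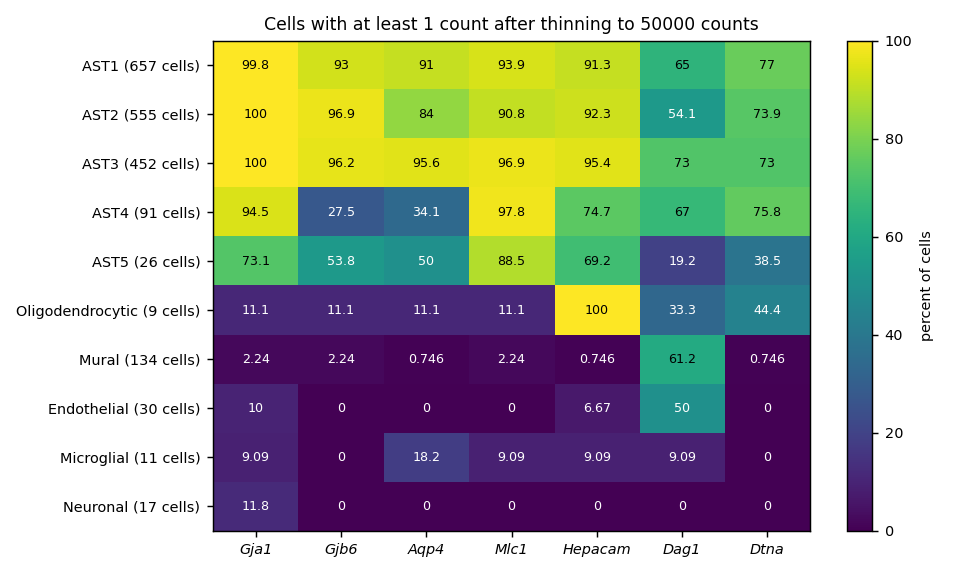
Percent of the cells of each class (rows, with the number of cells) that had at least 1 count of each gene (columns) after each cell was thinned to 50000 gene counts; the colour scale runs from 0 to 100%. Hepacam reaches 100% in oligodendrocytic cells and Dag1 61.2% in mural cells, while the connexins and Aqp4 stay at 18.2% or less outside astrocytes.

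Between regions, the summed counts of all astrocytes were compared with edgeR's quasi-likelihood test, in which 0 of 19160 genes (0%) and 0 of the 7 members passed an adjusted p of 0.05. With 2 suspensions per region the test had little power over all genes: in simulated counts for this comparison it recovered 34 of 95 genes changed by 2 on the log2 scale. The changed genes were drawn at random from all genes tested, so this share does not give the power for the 7 members, which are among the more abundant genes. At an unadjusted p under 0.05 stood 5 of 7 members and 13.6% of all genes. DESeq2's Wald test called 3 of 7, Mlc1, Dag1 and Dtna, against 9.7% of all genes. The suspensions of the regions did not overlap for 7 of 7 members, against 46% of all genes.

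Mlc1 had the largest log2 fold change of hippocampus over cortex, 0.48 ± 0.05 (SE), with an edgeR adjusted p of 0.156 that ranged over the alternatives from 8.7e-14 (DESeq2) to 0.676. It was followed by Dag1 at 0.42 ± 0.08 (SE), edgeR adjusted p 0.226, and Dtna at 0.29 ± 0.08 (SE), adjusted p 0.261. Aqp4 was at 0.18 ± 0.06 (SE) and Gja1 at 0.12 ± 0.04 (SE), while Gjb6 at -0.20 ± 0.08 (SE) and Hepacam at -0.21 ± 0.07 (SE) were negative, with edgeR adjusted p-values of 0.298 to 0.41 for these 4. The median over all genes was 0.01 and that of the members 0.18. All cortical and few hippocampal libraries were amplified on library PCR thermal block 1. Among the cells of that block, which left 52 and 61 hippocampal astrocytes, the log2 fold change was 0.46 for Mlc1, 0.52 for Dag1, 0.11 for Dtna, 0.23 for Aqp4, 0.09 for Gja1, 0.04 for Gjb6 and -0.16 for Hepacam, so that of Gjb6 lost its sign.

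Within AST1 and AST3, over all their cells, the Mlc1 difference was smaller than over all astrocytes. In AST1, Mlc1 was at 2223 and 2514 CPM in the cortical suspensions and 2456 and 2419.8 CPM in the hippocampal ones, and these overlapped, with a log2 fold change of 0.07 ± 0.11 (SE). In AST3 it was at 2113 and 1792 CPM in the cortical suspensions and 2187 and 1979.8 CPM in the hippocampal ones, again with overlap, at 0.15 ± 0.10 (SE). Within thermal block 1, which left 38 and 36 hippocampal cells of AST1 and 12 and 8 of AST3, it was 0.09 in AST1 and turned to -0.32 in AST3. AST2, the subtype with the lowest Mlc1, was mostly cortical and AST4, with the highest, mostly hippocampal (cell numbers above). The part of this makeup in the difference over all astrocytes was not tested.

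In AST1 edgeR called 0 of 7 members and 0% of 15521 genes. Dag1 had the largest log2 fold change at 0.53 ± 0.16 (SE), edgeR adjusted p 0.294, from 266.03 and 316.7 CPM in cortex to 405 and 418 CPM in hippocampus. It was the only member with an unadjusted p under 0.05, 1 of 7 against 13%, and the only one called by DESeq2, 1 of 7 against 17.5%. The regions did not overlap for Dag1 and Hepacam, 2 of 7 against 42.6%. Within that thermal block the log2 fold change of Dag1 in AST1 was 0.53. The other 6 log2 fold changes over all cells of AST1 lay between -0.13 ± 0.11 (SE) for Hepacam and 0.14 ± 0.14 (SE) for Dtna.

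Over all AST3 cells the connexins had the largest region differences of the 7. Gjb6 was at 1476 and 1558 CPM in the cortical suspensions and 2241 and 2294 CPM in the hippocampal ones, with no overlap and a log2 fold change of 0.63 ± 0.07 (SE). Its edgeR adjusted p was 0.38 (unadjusted 7.3e-04). Gja1 was at 6811 and 6723 CPM in the cortical suspensions and 8614 and 8043 CPM in the hippocampal ones, a log2 fold change of 0.35 ± 0.04 (SE) with the same edgeR adjusted p of 0.38. Both connexins were thus higher in both hippocampal suspensions, and the other 5 members lay between -0.22 for Hepacam and 0.26 for Dag1. edgeR called 0 of 7 members and 0% of 14960 genes, 2 of 7 were at an unadjusted p under 0.05 against 10.3%, and DESeq2 called 2 of 7, these connexins, against 13.8%. The regions did not overlap for 5 of 7 members, against 41.3%. Within library PCR thermal block 1 the log2 fold change in AST3 was 0.87 for Gjb6, but 0.14 for Gja1, smaller in size than the -0.32 of Mlc1. These values rest on 12 and 8 hippocampal AST3 cells.

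Whether the region difference itself differed between AST1 and AST3 was fitted on the 8 sums of both subtypes with the suspension as a block. For Gjb6 the difference of AST1 from AST3 was -0.58 ± 0.10 (SE) on the log2 scale and for Gja1 -0.23 ± 0.10 (SE), both with an edgeR adjusted p of 0.777. Again edgeR called 0 of 7 members and 0% of 17213 genes. Gjb6 alone had an unadjusted p under 0.05, 1 of 7 against 3.75% of genes, and the DESeq2 calls were Gjb6 and Gja1, 2 of 7 against 11%. The median over all genes was 0.72 in this fit, but 0.03 over the 1702 genes at 100 CPM or more, among which the members lie.

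**Figure D4:**
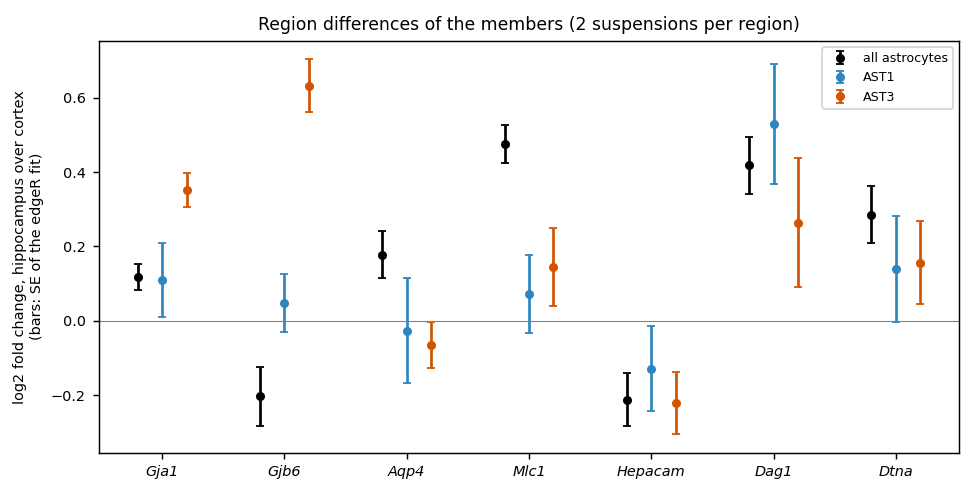
Log2 fold change of hippocampus over cortex (vertical axis) for each gene in all astrocytes, AST1 and AST3, with 2 suspensions per region. Bars are the standard error derived from each fold change and its edgeR F statistic. Mlc1 stands at 0.48 over all astrocytes but nearer to 0 within AST1 and AST3, and Gjb6 is at 0.63 in AST3.

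The ratio of the connexins was higher in hippocampus over all astrocytes and lower there within AST3, when the cells of all library PCR blocks were taken. Over all astrocytes there were 3.79 and 3.48 Gja1 counts per Gjb6 count in cortex and 4.69 and 4.37 in hippocampus, a difference of 0.32 on the log2 scale (exact permutation test, two-sided p = 0.333, the smallest that 2 against 2 suspensions allow). In AST3 the cortical ratios were 4.61 and 4.32, above the hippocampal ones of 3.84 and 3.51, a difference of -0.28 with the same p. Within library PCR thermal block 1 the ratio over all astrocytes was 3.79 and 3.48 in cortex, between the hippocampal values of 3.31 and 4.16, and the difference was 0.03. In AST3 of that block it was -0.71. Over the cells of all blocks the difference was 0.07 in AST1 and 0.20 in AST2, in both of which the ratios of the regions overlapped. With AST1, AST2 and AST3 counted equally the difference was -0.0051. The ratio was highest in AST4, at 11.7 and 7.93, and in AST5 it ran from 0.882 to 5.82.

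**Figure D5:**
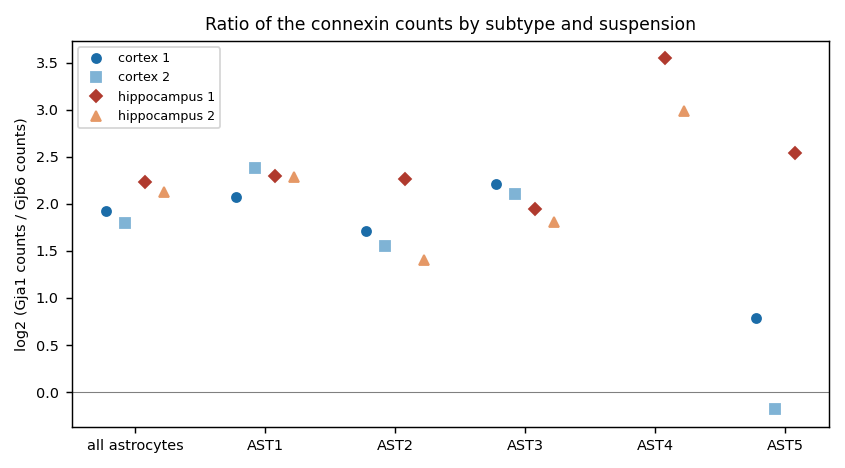
Log2 ratio of Gja1 to Gjb6 counts (vertical axis) over all astrocytes and in each subtype, with 1 point per suspension of at least 5 cells. The hippocampal points lie above the cortical ones over all astrocytes and below them in AST3, and AST4 lies highest.

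Across single astrocytes, no correlation between members passed 0.30 on average over the suspensions, but some were among the higher ones of all genes. Spearman correlations of log2(CPM + 1) were computed over the cells of each suspension and averaged over the 4 suspensions, and cells share their library plates and depth, so they are given as a description. The closest pair were the connexins, Gja1 with Gjb6 at 0.26, but from 0.05 to 0.43 between suspensions. Gja1 with Aqp4 was at 0.21 and Gja1 with Hepacam at 0.20 (0.18 to 0.23). For Gja1 these 3 stood at places 6, 19 and 25 among 2565 genes, whose median correlation with Gja1 was -0.02. Gjb6 with Mlc1 was negative in all 4, from -0.25 to -0.07. Mlc1 with its partner Hepacam was at 0.03 and Aqp4 with Dtna at 0.0087. The median of the 21 pairs was 0.03, and within AST1, AST2 and AST3 it was 0.0072, with Gja1 and Gjb6 at 0.14 and Gja1 and Hepacam at 0.16. Gja1 and Aqp4 went to 0.08 and Gjb6 and Mlc1 to -0.07, while Gja1 and Mlc1 went from 0.01 to 0.12.

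Among 2566 genes with a count in over 25% of astrocytes, those most like Gja1 were Atp1b2 (0.33), which encodes the antigen of the sort, the orphan receptor Gpr37l1 (0.32) and the serine protease Htra1 (0.30). Those most like Gjb6 were Gpr37l1 (0.32), the amino acid transporter Slc7a10 (0.30) and tissue factor, F3 (0.29). Aqp4 had the apolipoproteins Apoe (0.30) and Clu (0.23) and the proteoglycan Bcan (0.22). Mlc1 had Tspan7 (0.28), Lamp1 (0.23) and Itm2b (0.21). Hepacam was the one gene with another member at its head, Gja1 (0.20), before Htra1 (0.17) and Atp1b2 (0.17). Dag1 had Mfge8 (0.17), the glutamate transporter Slc1a3 (0.15) and the receptor Ntrk2 (0.14). For Dtna no correlation passed 0.10, that with Rpl11, before Sdf4 (0.10) and Sptbn1 (0.09).

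The relatives and partners of the 7 genes, 84 genes in 6 lists, were read in the same sums. Of the 58 that could be tested over all astrocytes edgeR called 0, with 13 at an unadjusted p under 0.05 (8 higher in hippocampus), beside the 13.6% of all genes given above. It called 0 of 47 in AST1, with 8 at an unadjusted p under 0.05 beside 13% of all genes, and 0 of 47 in AST3, with 8 beside 10.3%. Among the 21 other connexins and pannexins none had a count in over 25% of astrocytes: Gjb2 (connexin 26) was the highest at 41.1 ± 15.7 CPM, followed by Panx1 at 1.12 ± 1.32 CPM. Among the 11 other aquaporins Aqp11 was at 43.8 ± 6.74 CPM and Aqp9 at 26.9 ± 4.88 CPM. Per kilobase, Gjb2 was at 17.1, Aqp9 at 6.5 and Aqp11 at 4.65 CPM per kb in astrocytes, under the 679.9, 645 and 238.7 of Gja1, Gjb6 and Aqp4. Mural and endothelial cells held other connexins, named here after their values were seen: Gja4 (connexin 37) at 1002 ± 216.96 CPM and Gjc1 (connexin 45) at 277.2 ± 81.5 CPM in mural cells over 4 suspensions, and at 226.8 ± 157.6 CPM and 223.7 ± 195.2 CPM in endothelial cells over 3. Gja4 had a count in 65.7% of mural and 30% of endothelial cells and Gjc1 in 36.6% and 36.7%, against 0.168% and 0.168% of astrocytes. The endothelial sums also carried mural markers (values above), and the part of these in the endothelial Gja4 and Gjc1 levels was not tested.

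Of the 15 other dystrophin-complex genes, Dmd (dystrophin) was at 274.97 ± 35 CPM and Sgcb (beta-sarcoglycan) at 164.1 ± 22.6 CPM in astrocytes. In mural cells Dmd was at 1083 ± 263.03 CPM. Utrn (utrophin, the relative of dystrophin), named after its values were seen, was at 928 ± 361.2 CPM in mural and 1091 ± 555 CPM in endothelial cells and 64.1 ± 11.3 CPM in astrocytes. Of the 10 ligands of dystroglycan, Lama2 (laminin alpha 2) was at 111.2 ± 21.6 CPM in astrocytes. Lama2 was at 318.99 ± 100.2 CPM in mural cells. Egflam (pikachurin), chosen after its values were seen, was at 775 ± 259.3 CPM in mural cells, against 1.0 CPM at most in an astrocyte sum. Of the 18 genes listed for the glycosylation pathway of dystroglycan, B4gat1 was at 285.1 ± 24.8 CPM, Dolk at 100.4 ± 13.2 CPM and Dpm2 at 55.1 ± 8.95 CPM.

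Of the 9 endfoot partners, Gpr37l1 was at 7523 ± 531 CPM in astrocytes, Slc4a4, a bicarbonate transporter, at 513 ± 141.1 CPM, Atp1b1, a subunit of the sodium pump, at 484 ± 205.1 CPM, the receptor Gpr37 at 184.2 ± 35.6 CPM, and the potassium channel Kcnj10, which shares the endfoot with Aqp4, at 137.7 ± 27.7 CPM (SD, n = 4). AST4 was measured in the hippocampal suspensions alone, so its levels are set beside those of hippocampus 1 and hippocampus 2. Gpr37l1 was at 2295 ± 181.9 CPM in AST4 against 6914 and 7294 CPM in all hippocampal astrocytes, and Slc4a4 at 76.8 ± 3.82 CPM against 669 and 597 CPM. Atp1b1 was at 218.3 ± 1.45 CPM against 321.9 and 300.4 CPM, a smaller gap, and Gpr37 at 82.4 ± 15.2 CPM against 206.2 and 218.8 CPM. These 4 were lower in AST4, whereas Kcnj10 was at 206.2 ± 44.3 CPM against 177.97 and 133.9 CPM and was not. In AST3, edgeR called 0 of the 8 tested partners, and 5 had an unadjusted p under 0.05 between regions, beside 10.3% of all genes, among them Slc4a4 (log2 fold change 1.11 ± 0.10, SE) and Kcnj10 (0.97 ± 0.22), both higher in hippocampus as Gja1 and Gjb6 were, and Atp1b1 (-1.20 ± 0.27), lower there. The edgeR adjusted p of these 3 was 0.38.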

How the data were processed

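Cells were sorted from papain-dissociated, Percoll-cleared cortex and hippocampus and sequenced with an optimised Smart-seq2 protocol (poly-A RNA, ERCC spike-ins). Per the study's methods and the submitters' processing notes, the authors checked reads with FastQC 0.11.4, aligned them with STAR 2.5.2b to GRCm38.p5 and deposited raw read counts per gene and cell from HTSeq 0.6.1p1 (Gencode M12). The strand setting is not given in the sources used here. The counts were used as deposited: rows for spike-ins (3.94% of counted reads), reads outside exons (12.2%) and reads on more than 1 gene (4.68%) were left out. Cells came from 2030 single-cell files. In the series-wide table, 32 columns (1 per plate) were compared with them, giving the same total in 32, and 1999 columns were not used. Symbols and positions were taken from GENCODE M21 (GRCm38) for 49412 of 49671 genes.

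Groups came from the labels and types from the authors' list. 1 mural cell was not analysed here, and 33 cells absent from the copy of the list (all cortex 1) and 15 listed without a type entered no comparison. Counts were summed per class and suspension. Regions were compared on these sums with edgeR 4.0.16 (R 4.3.3; filterByExpr, TMM, glmQLFit, glmQLFTest, Benjamini-Hochberg over all genes tested) and, as an alternative, DESeq2 1.42.0. Subtypes were described by ratios, with a count of 3 as the lowest value in a sum and a fold of 1.28 required in every suspension with at least 5 cells. The SE of a region log2 fold change was computed as the size of the change divided by the square root of its edgeR F statistic. It is thus no separate measure of spread, and the p-values are those of the F test. Random thinning to 50000 counts used seed 11, and no cell had fewer counts. The scripts were tested on simulated data: over all astrocytes (18317 genes) 14 of 95 genes changed by 1 and 34 of 95 changed by 2 on the log2 scale were recovered, in AST1 0 of 95 and 2 of 96, in AST3 0 of 94 and 8 of 98, and in the comparison of region differences 0 of 99 and 0 of 99. Unchanged genes were also called, 7 over all astrocytes, 1 in AST1, 1 in AST3 and 0 in the comparison of region differences.

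The members and gene lists were chosen with earlier results of these data known. Beyond the 7 members, genes were named if they were among the 2 of a list with the highest CPM in astrocytes, stood at or above the lowest member per kilobase, passed the region test, or were among the 3 genes most like a member, and 2 genes that met this rule are not reported here. Gja4, Gjc1, Utrn and Egflam meet no part of the rule and were named after their values were seen. Python 3.11.15, scipy 1.17.1 and matplotlib 3.10.9 were used for the rest. The suspensions are separate preparations, but each region has only 2, and the 4-mouse pools of hippocampus average over animals.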

Additional observations from a re-analysis of the deposited data

Results flagged for a closer look

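Cells that entered no comparison also carried these genes. Among the 33 cells of cortex 1 that are absent from the copy of the type list, 7 of the 7 members had a count in over 25% of cells: Gja1 in 32 of 33 (5907 CPM over the pooled cells), Gjb6 in 32 (1925 CPM), Hepacam in 31 and Dag1, the lowest, in 20. Among the 15 cells listed without a type, 6 of the 7 did: Mlc1 in 11 of 15 (2001 CPM), Gja1 in 10 (2674 CPM) and Aqp4 in 10, while Dag1 was in 3. The study discarded some cells at the clustering step because they did not reach a minimal total expression. Whether these 15 cells are among them was not tested. The signals of both groups lie outside the cells that the report compares, and what types the cells belong to was not tested. No group of samples was large enough to be searched for an outlying suspension.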

How the results depend on the processing

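The members' region calls depended on the tool. edgeR called 0 members in each of the 4 comparisons, also with DESeq2's size factors, without the low-count filter, within thermal block 1, at 0 or 1 freeze/thaw cycles of the template-switching oligo alone, and leaving out each suspension (0 to 0). The DESeq2 Wald test called 3 over all astrocytes, 1 in AST1, 2 in AST3 and 2 for the difference between them, and edgeR on cells thinned to 50000 counts called 1 (Mlc1) over all astrocytes. With the replicate number as a block edgeR called 0 over all astrocytes, 0 in AST1 and 0 in AST3. The numbers are shared by the regions but mark no common animal, and deviations of same-numbered suspensions did not go together (r = -0.0154 over 19160 genes), so the samples share only a number.

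Members past the fold numbered 0 in AST1 and 0 in AST3 with at least 10 cells per sum, 0, 1 and 0 in AST1, AST2 and AST3 at 1.5-fold, and 0 in each of these with the other subtypes weighted by cells. AST3 had 4 by the mean over cells of log2(CPM + 1) and 2 after thinning, and AST5 had 7 with at least 10 cells, where 1 sum remained. Leaving out each suspension gave 2 to 2 in AST1, 2 to 3 in AST2, 1 to 3 in AST3 (3 without hippocampus replicate 2), 5 to 7 in AST4 (7 without hippocampus replicate 1, where 1 sum remained) and 4 to 6 in AST5 (6 without hippocampus replicate 1), 6 to 6 in mural and 7 to 7 in endothelial cells. AST4 had 5 under the other 5 alternatives. Of the 350 recomputed log2 ratios of single members in subtypes and types, 74 moved by more than their spread, more of them as means over cells of log2(CPM + 1) than under any other alternative. By that measure Gja1 was at -2.58, Gjb6 at -6.93, Aqp4 at -5.90 and Mlc1 at 1.25 in AST4, Gja1 was at -5.22 in AST5, and Mlc1 turned to -0.18 in AST5 and 0.18 in AST3.

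The difference of the connexin ratio between regions turned to -0.0051 with AST1, AST2 and AST3 counted equally, was 0.029 within thermal block 1, an alternative chosen after seeing the data, and ran from 0.25 to 0.38 leaving out each suspension. The median pair correlation was 0.0072 within AST1, AST2 and AST3. The 7 levels in CPM moved by less than their spread after thinning.

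Of the recomputed region log2 fold changes of single members, 30 changed sign and 9 came to pass the threshold, by DESeq2 or after thinning, and none of the sign changes concerned a called value. Within thermal block 1 Gjb6 was at 0.042 over all astrocytes, Aqp4 was at 0.025 in AST1, Dtna was at -0.073 in AST1, Mlc1 was at -0.32 in AST3 and Mlc1 was at 0.44 for AST1 against AST3. At 0 freeze/thaw cycles Gjb6 was at -0.25 in AST1, Dag1 was at -0.00038 in AST3, Mlc1 was at 0.11 for AST1 against AST3 and Dtna was at 0.20 for AST1 against AST3. At 1 freeze/thaw cycle Gjb6 was at 0.0022 over all astrocytes, Aqp4 was at 0.066 in AST1, Mlc1 was at -0.068 in AST1 and Dag1 was at -0.045 for AST1 against AST3. With DESeq2's size factors Gjb6 was at -0.0043 in AST1, Aqp4 was at -0.065 for AST1 against AST3 and Hepacam was at -0.016 for AST1 against AST3. By DESeq2 Gjb6 was at -0.0043 in AST1, Aqp4 was at -0.065 for AST1 against AST3 and Hepacam was at -0.016 for AST1 against AST3. Without the filter Dtna was at 0.0042 for AST1 against AST3. After thinning Aqp4 was at 0.021 in AST1. Leaving out each suspension gave ranges that crossed 0, -0.0061 to 0.24 for Gja1 in AST1, -0.18 to 0.14 for Aqp4 in AST1, -0.037 to 0.19 for Mlc1 in AST1, -0.087 to 0.19 for Aqp4 for AST1 against AST3, -0.29 to 0.16 for Mlc1 for AST1 against AST3 and -0.11 to 0.063 for Dtna for AST1 against AST3. The causes of these changes were not tested.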
